A study of Mus musculus with 13 samples.

Results

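The T-box genes Tbx1, Tbx2, Tbx3, Tbx4, Tbx5, Tbx15 and Tbx20 were followed through H3K27me3 peak lists of mouse embryonic fibroblasts. The 7 genes lie in 5 windows of the mouse build mm9, and the members are all peaks that overlap a window. Tbx3 and Tbx5 share the window on chromosome 5 from 120.05 to 120.40 Mb, and Tbx2 and Tbx4 share that on chromosome 11 from 85.60 to 85.76 Mb. Tbx1 has the window on chromosome 16 from 18.54 to 18.62 Mb, Tbx15 that on chromosome 3 from 98.98 to 99.18 Mb and Tbx20 that on chromosome 9 from 24.45 to 24.60 Mb. In all, 7 peaks qualified, 3 of 1053 in the H3.1K27M list and 4 of 1192 in the H3.3K27M list.

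The series used chromatin immunoprecipitation and sequencing of H3K27me3, EZH2, or FLAG and EZH2 together, in 13 samples. The 2 groups used here are H3K27me3 precipitations from fibroblasts transduced with lentivirus for stable expression of H3.1K27M or of H3.3K27M, histone H3 variants in which lysine 27 is replaced by methionine. Each group has 2 replicate samples but 1 deposited peak list, so the spread between replicates is unknown and each difference between the lists below is a description without a test. The labels give neither the age or strain of the embryos, nor the promoter that drives the histone, nor whether a line is a single clone, and peak lists of a histone mark offer no expressed marker against which the fibroblast label could be checked.

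T-box genes encode transcription factors that bind DNA through a shared T-box domain and act at set places and times in the embryo. Tbx5 acts in the forelimb and heart, Tbx4 in the hindlimb and lung, and the repressors Tbx2 and Tbx3 in the limb and in parts of the heart that do not form chambers. Tbx1 acts in the pharyngeal region and outflow tract, Tbx20 in heart muscle and valves, and Tbx15 in the skeleton, skin and adipose tissue of the trunk and limbs. H3K27me3 is the trimethyl mark that Polycomb repressive complex 2 (PRC2), with its catalytic subunit EZH2, places over developmental regulators in cells that keep them silent, and K27M histones are known to inhibit that complex.

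PRC2 target promoters in mammals are generally rich in CpG, a cytosine followed by a guanine, so the RefSeq promoters of the members are shown first. The RefSeq table (build GRCm38.p6, 32851 promoters of 300 bases) matched 3 of the 7 genes, Tbx1, Tbx4 and Tbx20, with 4 promoters. The 250 bases before the start of one of each are printed 5′ to 3′ on the gene's strand, with every CpG in capitals. They show the range of CpG content among the matched members, and of the 2 Tbx1 promoters the one with more CpG is printed. No promoter of Tbx2, which shares the window of Tbx4, was matched, so CpG content was not set against the calls.
Tbx1 (GRCm38.p6, chr16:18588900-18589149, minus strand): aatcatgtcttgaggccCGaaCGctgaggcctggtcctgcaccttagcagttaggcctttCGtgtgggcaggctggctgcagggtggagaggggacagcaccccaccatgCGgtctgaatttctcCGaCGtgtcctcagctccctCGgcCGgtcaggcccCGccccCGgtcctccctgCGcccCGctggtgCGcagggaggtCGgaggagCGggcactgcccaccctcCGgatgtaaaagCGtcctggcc
Tbx20 (GRCm38.p6, chr9:24774304-24774553, minus strand): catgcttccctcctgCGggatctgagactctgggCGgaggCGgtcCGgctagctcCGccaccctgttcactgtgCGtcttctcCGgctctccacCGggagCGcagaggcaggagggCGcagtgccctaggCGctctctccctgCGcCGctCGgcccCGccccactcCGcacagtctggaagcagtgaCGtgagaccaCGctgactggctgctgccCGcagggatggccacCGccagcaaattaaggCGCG
Tbx4 (GRCm38.p6, chr11:85896515-85896764, plus strand): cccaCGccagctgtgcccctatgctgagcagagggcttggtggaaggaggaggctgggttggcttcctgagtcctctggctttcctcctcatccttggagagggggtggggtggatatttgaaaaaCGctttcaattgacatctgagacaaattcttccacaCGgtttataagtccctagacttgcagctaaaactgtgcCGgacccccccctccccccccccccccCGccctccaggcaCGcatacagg
Over the full 300 bases the printed Tbx1 promoter held 26 CpG and the Tbx20 promoter also 26, more than 83.1% of all promoters in the table. The Tbx4 promoter held 8, close to the median of 7. The other Tbx1 promoter in the table held 16. The ratio of observed to expected CpG was 0.73 for the printed Tbx1 promoter, 0.75 for Tbx20 and 0.31 for Tbx4, against a median of 0.38. At least 1 CpG (the motif CG, which reads the same on both strands) is present in 94.6% of promoters. These positions belong to a later assembly than the peaks, so whether a peak covers a promoter was not determined here, and for Tbx2 and Tbx4, as for Tbx3 and Tbx5, a peak cannot be given to 1 gene of the pair.

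H3K27me3 was called in 4 of the 5 T-box windows in the H3.3K27M list and in 3 of 5 in the H3.1K27M list. Every window with a peak held a single peak in a list. The windows of Tbx3 and Tbx5, of Tbx1 and of Tbx20 were marked in both mutants, that of Tbx2 and Tbx4 in the H3.3K27M list only, and that of Tbx15 in neither. Both lists come from K27M cells, and the H3K27me3 samples labelled H3.1K27R and H3.3K27R were not used. Loss, gain or retention of the mark against cells without a K27M histone was therefore not tested. For scale, 5.58% of consecutive 160 kb tiles of the autosomes and X chromosome (160 kb is the median window length) overlapped an H3.1K27M peak and 6.5% an H3.3K27M peak. The windows differ in length from these tiles, from 80 kb to 350 kb, and were proposed with results of these lists known, so no inference is drawn from the difference.

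**Figure D1:**
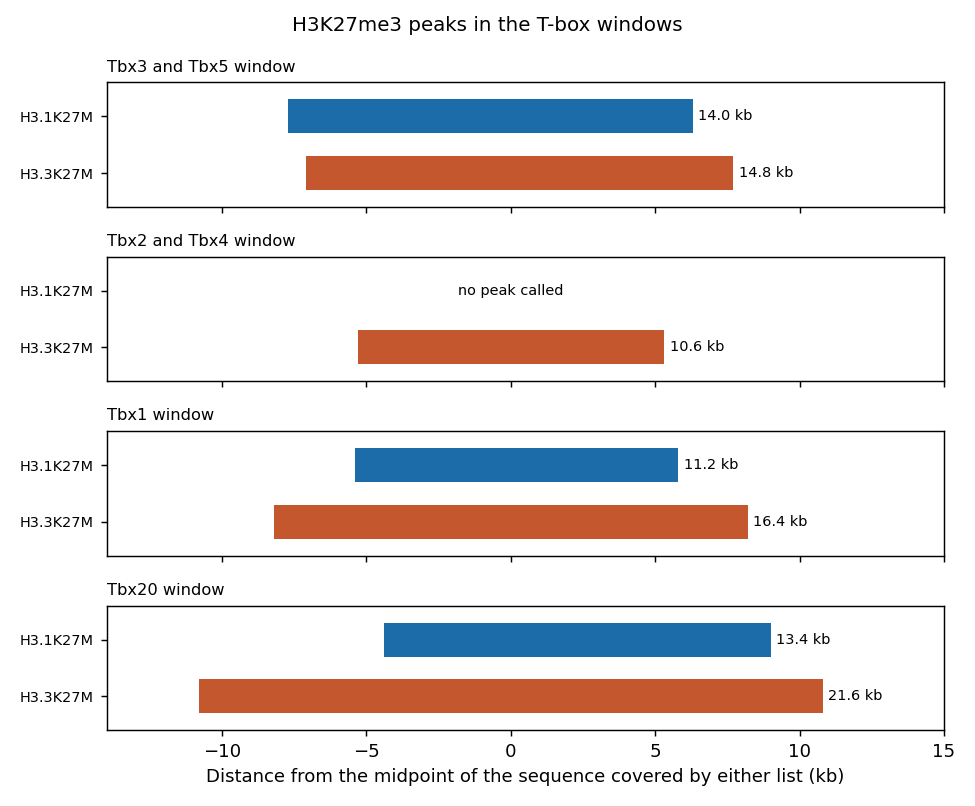
Each panel shows 1 window, with the horizontal axis in kb from the midpoint of the sequence covered by either list and 1 bar per called peak (blue for H3.1K27M, orange for H3.3K27M). The H3.3K27M peaks of Tbx1 and Tbx20 reach beyond the H3.1K27M peaks on both sides, those of Tbx3 and Tbx5 are nearly of 1 width, and the Tbx2 and Tbx4 window has an H3.3K27M peak of 10.6 kb alone. The Tbx15 window had no peak and is not drawn.

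The window of Tbx3 and Tbx5, neighbouring genes in the RefSeq table, held 1 peak in each list. Whether that peak lies on either gene was not determined. The H3.1K27M peak ran from 120243601 to 120257599 on chromosome 5 (14.0 kb), and the H3.3K27M peak from 120244201 to 120258999 (14.8 kb). The 2 peaks had 13.4 kb in common, 95.7% of the H3.1K27M peak and 90.5% of the H3.3K27M peak. Of the 350 kb in the window, H3.1K27M peaks covered 4.0% and H3.3K27M peaks 4.23%. The called sequence thus formed a single stretch, 193.6 kb from the start of the window and 141.0 kb from its end, measured to the outermost edges of either peak. Depth and threshold are not known, so the rest of the window may carry the mark below the level that was called.

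The window of Tbx2 and Tbx4, the other linked pair, differed between the lists. In the H3.3K27M list a peak of 10.6 kb ran from 85644401 to 85654999 on chromosome 11, covering 6.62% of the 160 kb window. No H3.1K27M peak was called in the window, and the nearest one ended 826.4 kb before its start. The running numbers that name the H3.1K27M peaks have no unused number between the peaks that flank this window, while 26 numbers are unused in the whole list. The H3.3K27M peak was 1.47 times the median width of its list (7.2 kb). Of all 1192 H3.3K27M peaks, 838 (70.3%) overlapped an H3.1K27M peak, so a peak without such a partner was not rare. Among the 354 H3.3K27M peaks without an H3.1K27M partner, 31 were at least as wide as this one, itself included. The depth and threshold behind the H3.1K27M list are not known, so the mark may have been present below the level that was called.

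As in the window of Tbx3 and Tbx5 (14.8 against 14.0 kb), the peaks in the windows of Tbx1 and Tbx20 were wider in the H3.3K27M list. Which other genes the windows of Tbx1 and Tbx20 hold on mm9 was not determined. In the RefSeq table Tbx1 lies between the coding genes Gnb1l and Gp1bb, and Tbx20 between Dpy19l2 and Herpud2. In the Tbx1 window the H3.1K27M peak ran from 18581001 to 18592199 on chromosome 16 (11.2 kb) and the H3.3K27M peak from 18578201 to 18594599 (16.4 kb), 1.46 times as wide. The covered part of the Tbx1 window was 14.0% under H3.1K27M and 20.5% under H3.3K27M. At 80 kb this is the shortest of the windows, so its covered share is not comparable with the others. In the Tbx20 window the H3.1K27M peak ran from 24573201 to 24586599 on chromosome 9 (13.4 kb) and the H3.3K27M peak from 24566801 to 24588399 (21.6 kb), 1.61 times as wide. The Tbx20 window was covered to 8.93% and 14.4%. In both windows the H3.1K27M peak lay wholly inside the H3.3K27M peak, of which it made up 68.3% at Tbx1 and 62.0% at Tbx20.

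The Tbx15 window held no H3K27me3 peak in either list. This window of 200 kb lay in a long stretch without peaks on chromosome 3. The nearest H3.1K27M peaks were 9342.0 kb before and 2635.2 kb after the window, and the nearest H3.3K27M peaks 5720.8 kb before and 4194.4 kb after it. Between these flanking peaks 4 running numbers are unused in the H3.1K27M list and 2 in the H3.3K27M list, and no position for them is given. Among the 5 windows, only that of Tbx1 also had an unused number between its flanking peaks, 1 in each list.

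The 7 T-box peaks were wider than the median peak of their lists (5.6 kb for H3.1K27M, 7.2 kb for H3.3K27M). They lie in 4 windows, in 3 of which the peaks of both lists overlap, so they are not 7 separate places. The windows were chosen with earlier results of these lists known, so nothing is inferred from this count. In the H3.1K27M list the peak of Tbx3 and Tbx5 ranked 156 from the widest, that of Tbx20 ranked 165 and that of Tbx1 ranked 213, of 1053. In the H3.3K27M list the order was different, with Tbx20 at 113, Tbx1 at 169, Tbx3 and Tbx5 at 195 and Tbx2 and Tbx4 at 316, of 1192. The window of Tbx3 and Tbx5 thus held the widest of the T-box peaks in H3.1K27M cells, and that of Tbx20 in H3.3K27M cells. In H3.1K27M cells the peak of the Tbx3 and Tbx5 window exceeded that of Tbx20 by 14.0 against 13.4 kb. Peak starts are resolved to steps of 200 bp, and without replicate lists no order between neighbours was tested.

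**Figure D2:**
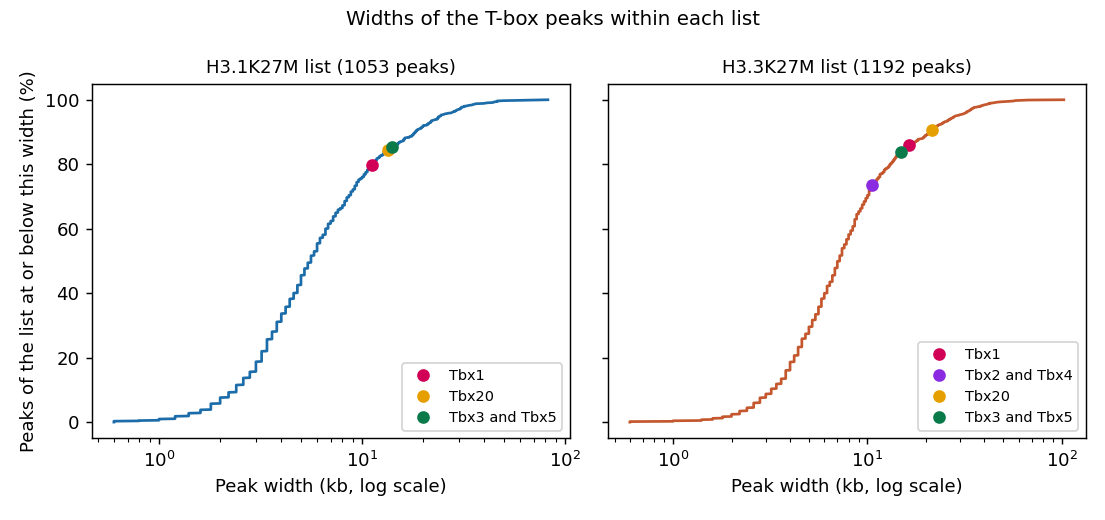
Cumulative share of peaks (percent, vertical axis) by width in kb on a log axis, for the H3.1K27M list (left) and the H3.3K27M list (right), with the T-box peaks as coloured points. The points lie between 11.2 and 14.0 kb on the left and between 10.6 and 21.6 kb on the right, all to the right of the list median.

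Of the T-box peaks, 3 of 3 in the H3.1K27M list and 3 of 4 in the H3.3K27M list (75%, exact 95% binomial interval 19.4 to 99.4%, counting error only) overlapped a peak of the other list by at least 1 bp. Over the whole lists these shares were 81.2% and 70.3%. The windows were chosen with earlier results of these lists known, so the 4 peaks are no random sample and nothing is inferred from the interval. The counts are too few to set the T-box windows apart from the rest.

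Where both lists had a peak, the H3.3K27M peak was the wider one in all 3 T-box regions, against 77.7% of the 807 regions in the genome that hold exactly 1 peak of each list. Dividing the H3.3K27M width by the H3.1K27M width gave a log2 ratio of 0.08 for Tbx3 and Tbx5, 0.55 for Tbx1 and 0.69 for Tbx20. Their median was 0.55, and the median of all 807 regions was 0.33, with quartiles of 0.05 and 0.66. Tbx1 therefore lay inside the middle range of the genome, Tbx20 just above it, and Tbx3 and Tbx5 in its lower part, where 28.4% of regions had a smaller ratio. A share of 3 of 3 is near this background. When peaks had to overlap by 70% of both widths, of the T-box regions only that of Tbx3 and Tbx5 counted as shared and the T-box value became 0.08.

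**Figure D3:**
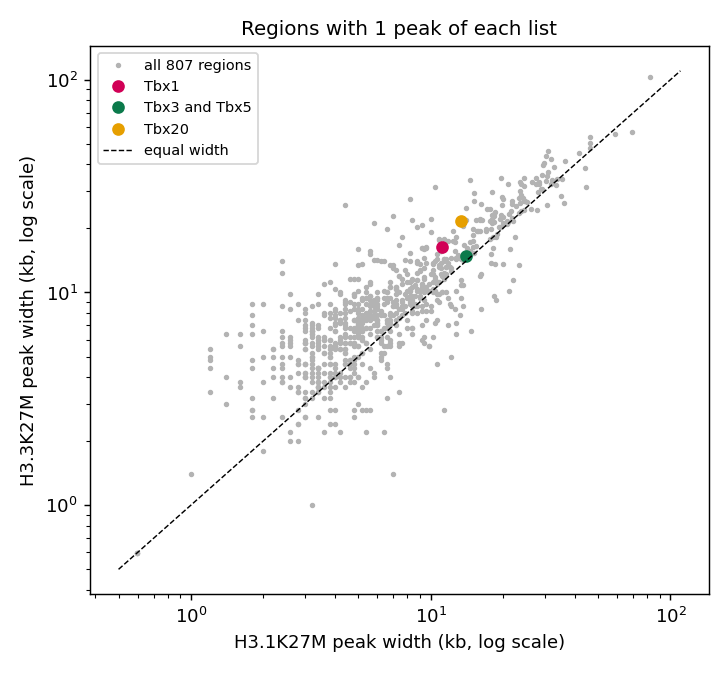
Peak width in H3.1K27M cells (horizontal) against H3.3K27M cells (vertical), in kb on log axes, for the 807 regions with 1 peak of each list (grey) and the 3 T-box regions (coloured). Tbx20 and Tbx1 sit above the dashed line of equal width, at 21.6 against 13.4 kb and 16.4 against 11.2 kb, and Tbx3 and Tbx5 lie close to it.

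The 3 shared T-box regions differed in where the H3.3K27M peak reached further. At Tbx1 it exceeded the H3.1K27M peak by 2.8 kb on the left (lower coordinates) and 2.4 kb on the right. At Tbx20 it did so by 6.4 kb on the left and 1.8 kb on the right. The medians of the 807 regions were 0.8 kb on each side. The left and right extensions were larger than in 87.1% and 82.2% of these regions at Tbx1, and in 97.4% and 72.0% at Tbx20. These ranks are in kb and take no account of peak width. The median H3.1K27M width was 13.4 kb over the T-box regions and 6.2 kb over all 807. By the width ratio, Tbx1 exceeded 68.0% of the regions and Tbx20 76.0%. In the window of Tbx3 and Tbx5 the H3.3K27M peak started 0.6 kb inside the H3.1K27M peak and ended 1.4 kb beyond it, a small shift to the right that 67 of the 807 regions showed in kind. Its left value exceeded 10.0% of the regions and its right value 62.5%. An extension at both edges was thus seen in 2 of 3 T-box regions, against 61.3% of all.

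**Figure D4:**
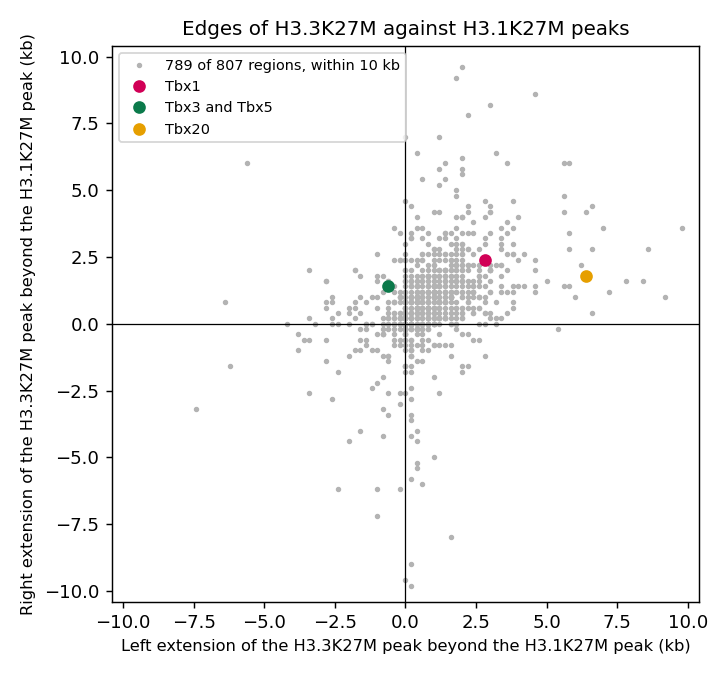
Distance in kb by which the H3.3K27M peak reaches beyond the H3.1K27M peak at the left edge (horizontal) and right edge (vertical), for the 789 of 807 regions within 10 kb on both axes (grey) and the T-box regions (coloured). Negative values mean that the H3.1K27M peak reaches further. Tbx20 stands to the right at 6.4 kb, Tbx1 above and to the right of the zero lines, and Tbx3 and Tbx5 just left of the vertical zero line.

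Summed over the windows, T-box peaks covered 38.6 kb under H3.1K27M against 63.4 kb under H3.3K27M, a ratio of 1.64. The Tbx2 and Tbx4 window supplied part of this difference, and without it the ratio was 1.37. Over the whole lists, peaks without a partner included, the ratio was 1.36, the value to set beside 1.64. Over the 807 regions with 1 peak of each list it was 1.23, the value to set beside 1.37. The nearest other peak of the same list was 448.4 kb or more from each T-box peak, the closest being on the left of the Tbx1 peak in the H3.3K27M list, where 1 unused running number between the flanking peaks cannot be placed. Such spacing was common: 38.4% of H3.1K27M peaks and 40.7% of H3.3K27M peaks were at least as far from their nearest neighbour, and the median distance was 237.2 and 291.4 kb. No listed peak lay just outside the edge of a window.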

How the data were processed

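The data are 2 deposited peak lists, 1 for each group of 2 replicate samples; the label of the second replicate names the same list, and no source says whether reads were pooled. The submitters' processing notes name Bowtie 1.0.0, deepTools and the build mm9. Peak caller, threshold and input: not given in the sources used here. Both deposited lists give position and width in bp on a 200 bp grid for starts, with no height, score or depth, so differences in depth or threshold can change which peaks exist and how wide they are. Printed positions count from 1.

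The windows and members were chosen with earlier results of these data known. All 7 members and all peaks in their windows were named. Peaks that overlapped by at least 1 bp were joined into regions. No test between groups was made, since each group has 1 list. mm9 chromosome lengths came from GenomeInfoDb 1.38.1. Planned protein alignments and the placing of other T-box genes were not run, for want of protein sequences and an mm9 gene table in the sources used here. The region step was tested on simulated lists with at most 1 peak of each list per region. Joining of several peaks of a list into 1 region was therefore not covered by it. Computations used Python 3.11.15, pandas 2.3.3, scipy 1.17.1 and networkx 3.6.1. Other samples were not analysed here.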

Additional observations from a re-analysis of the deposited data

How the results depend on the processing

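Of 50 values recomputed under other settings (a reciprocal overlap of 50%, merging of peaks under 5 kb apart, only peaks at or above the median width, only peaks wholly inside a window, clipping to the window, and windows widened by 50 kb at each side), 48 were identical to those reported. This says little about stability, since all 7 T-box peaks lie wholly inside their windows, exceed the median width of their list and have no other peak of the same list closer than 448.4 kb, so that every setting but the reciprocal overlap could not change a T-box value. The other 2 were the share of all regions wider in the H3.3K27M list, at 76.0% with the reciprocal overlap and 78.0% with merging. A reciprocal overlap of 70%, chosen after seeing the data, left, of the T-box regions, only that of Tbx3 and Tbx5 as shared. The share of T-box peaks with a partner was then 33.3% in the H3.1K27M list and 25% in the H3.3K27M list, the median log2 width ratio went from 0.55 to 0.08, and 73.9% of all regions were wider in the H3.3K27M list; by construction this rule drops pairs of unequal width. No paired analysis was possible because 1 list stands for both replicates of a mutant, which also kept either replicate from being left out. The unknown depth limits every statement about a missing peak, at Tbx2 and Tbx4 and at Tbx15.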
